A study of Mus musculus with 4 samples.

Results

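The genes described here carry the Wnt signal from the secreting cell to the nucleus of the receiving cell: the Wnt ligands, their receptors and secreted modulators, and the TCF/LEF transcription factors. They were selected by a pattern of gene symbols, with no threshold on a measured value. Of 26214 gene symbols in the deposited tables, 49 are members, namely 19 Wnt ligands, the secretion factors Porcn and Wls, 4 R-spondins, 5 secreted frizzled-related proteins (Frzb among them), 10 frizzled receptors, the co-receptors Lrp5 and Lrp6, 3 dishevelled proteins and 4 TCF/LEF factors. Polyadenylated RNA was sequenced from mouse colon cancers raised with azoxymethane (AOM), a carcinogen, and dextran sulfate sodium (DSS), an agent that injures the colonic lining. Both groups carried such cancers, and every library comes from treated tissue. Libraries labelled Gsk3b (IEC+/+) and libraries labelled Gsk3b (IEC-/-), 2 of each, differ in whether intestinal epithelial cells carry Gsk3b, and the comparison asks how epithelial loss of this kinase bears on the transcriptome. The driver of the deletion, the deleted exons, the strain, the age and whether each library came from a separate mouse were not stated in the labels, so the p-values reflect no more than the variation among these libraries, which may be technical.

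A Wnt protein is lipid-modified by Porcn, carried out of the cell by Wls and bound at the receiving cell by a frizzled receptor together with Lrp5 or Lrp6. Dishevelled proteins pass the signal on, the complex that holds GSK3B stops marking beta-catenin for destruction, and beta-catenin joins TCF/LEF factors on DNA. R-spondins raise the number of frizzled receptors at the surface, and the secreted frizzled-related proteins bind Wnts outside the cell. In the colon this pathway maintains the stem cells of the crypt base, and its activation is a common step in colon cancer.

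Sequences of 3 promoters show the control regions of members on which the results turn: Wnt6, which had the highest level of the ligands per length of transcript, Fzd5, the member with the smallest adjusted p, and Tcf7l2, the main TCF of the intestinal epithelium, which was lower in IEC-/-. Each is the 250 bases before the annotated start, 5′ to 3′ on the strand of the gene, from RefSeq on GRCm38.p6, whose starts can differ from those of GENCODE M21, the source of the gene coordinates below. Capitals mark GGGCGG and its reverse complement CCGCCC, the GC box bound by SP and KLF factors.

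Wnt6 (chr1:74771642-74771891, plus strand): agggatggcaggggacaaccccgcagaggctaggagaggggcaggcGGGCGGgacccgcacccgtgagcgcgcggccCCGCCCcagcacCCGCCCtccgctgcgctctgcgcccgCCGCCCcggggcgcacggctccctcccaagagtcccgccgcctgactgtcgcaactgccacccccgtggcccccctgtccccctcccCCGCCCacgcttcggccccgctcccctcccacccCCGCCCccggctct
Fzd5 (chr1:64737751-64738000, minus strand): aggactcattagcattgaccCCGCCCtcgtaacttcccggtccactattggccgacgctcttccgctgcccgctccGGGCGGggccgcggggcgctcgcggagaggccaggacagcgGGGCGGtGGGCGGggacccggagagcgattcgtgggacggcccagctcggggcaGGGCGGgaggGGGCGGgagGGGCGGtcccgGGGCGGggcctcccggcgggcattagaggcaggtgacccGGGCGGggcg
Tcf7l2 (chr19:55741560-55741809, plus strand): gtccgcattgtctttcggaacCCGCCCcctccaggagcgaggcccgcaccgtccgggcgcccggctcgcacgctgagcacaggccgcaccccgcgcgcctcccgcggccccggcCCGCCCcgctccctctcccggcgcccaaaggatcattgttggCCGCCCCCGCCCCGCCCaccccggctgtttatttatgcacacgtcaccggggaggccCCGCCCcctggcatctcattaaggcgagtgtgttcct

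The GC box occurred 6 times in the Wnt6 window, 9 times in Fzd5 and 6 times in Tcf7l2, both strands counted, with 1 overlapping pair in Tcf7l2. A promoter window was found for 34 of the 49 members, and 28 of these 34 (82.4%) held at least 1 GC box, against 33.0% of 27025 genes at their most upstream start. The TCF/LEF core CTTTGAT or its reverse complement ATCAAAG was in 1 of the 34 member windows (2.94%) and in 3.26% of all genes, and in none of the 3 windows shown (0 matches each). These counts describe the letters of 1 short window per gene. The 27025 genes were not matched to the members for GC content or expression, and the 3 windows shown were 72.8% to 79.6% G or C.

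Total counts were 25472503 to 27218515 per library, and no library was identical to another. Levels below are in CPM, read counts scaled to library size. Gsk3b itself differed little: the IEC+/+ libraries stood at 170.5 and 157 CPM and the IEC-/- libraries, just below them, at 152 and 149 CPM. Its log2 ratio of IEC-/- over IEC+/+ (the fitted log2 fold change) was -0.12 (SE 0.12, adjusted p = 0.681). The deleted exons are not known and the tissue is mixed, so this count does not check the labels. Epcam, a defining marker of epithelium, was present in every library, between 1045 and 1444 CPM. Replicates of the members were less alike than those of genes at large: 7 of 42 differed by more than 1 on the log2 scale between the IEC+/+ libraries and 8 of 42 between the IEC-/- libraries, against 7.20% and 9.62% of all genes tested. The 7 were Rspo3, Rspo4, Sfrp5, Wnt16, Wnt7a, Wnt8b and Wnt9a, none above 2.72 CPM in IEC+/+. The 8 reached at most 15.9 CPM in IEC-/-. These shares were not matched for level.

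Members differed between the groups in both directions, and 0 of them passed the test over all genes. The expression filter left 42 of the 49. Called by edgeR at an adjusted p under 0.05 were 0 of 42, where 0.884% of 16637 genes were (0.120% higher and 0.763% lower in IEC-/-). With an unadjusted p under 0.05 there were 14 members, 9 higher and 5 lower in IEC-/-, which is 33.3% of those tested against 16.6% of all genes (7.50% higher and 9.12% lower). The groups did not overlap in CPM for 27 of 42 members (64.3%), against 48.0% of all genes. A log2 ratio of at least 1 in either direction was seen for 15 members (35.7%), against 9.92% of all genes. The members had a median log2 ratio of 0.35, and all genes 0.01. Of the 42, Rspo4, Sfrp5, Wnt10b and Wnt9a met the filter's level in both IEC-/- libraries but not in both IEC+/+ libraries. Wnt2 met it in both IEC+/+ libraries but not in both IEC-/- libraries. The inclusion of these genes is thus not independent of their difference, and the shares above are a description.

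The call depended on the tool and on single libraries. DESeq2 called 8 of the 38 members to which it gave an adjusted p, against 7.95% of all genes: Fzd3, Fzd6, Fzd10, Porcn and Wnt10a higher, and Fzd5, Sfrp2 and Tcf7l1 lower. By limma-voom 0 members were called (0.469% of all genes), with 14 at an unadjusted p under 0.05. Under edgeR the count of members called was also 0 with DESeq2-type size factors (0.860% of all genes) and with total counts (0.499%), with 14 and 15 members at an unadjusted p under 0.05. It was 1 with no filter (1.82% of all genes), 2 with the replicate number as a block (1.27%), 4 without IEC-/- replicate 1 (4.24%) and 1 without IEC-/- replicate 2 (3.32%). With IEC+/+ replicate 1 or replicate 2 left out it was 0, as for all genes, and 10 and 9 members then had an unadjusted p under 0.05.

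**Figure D1:**
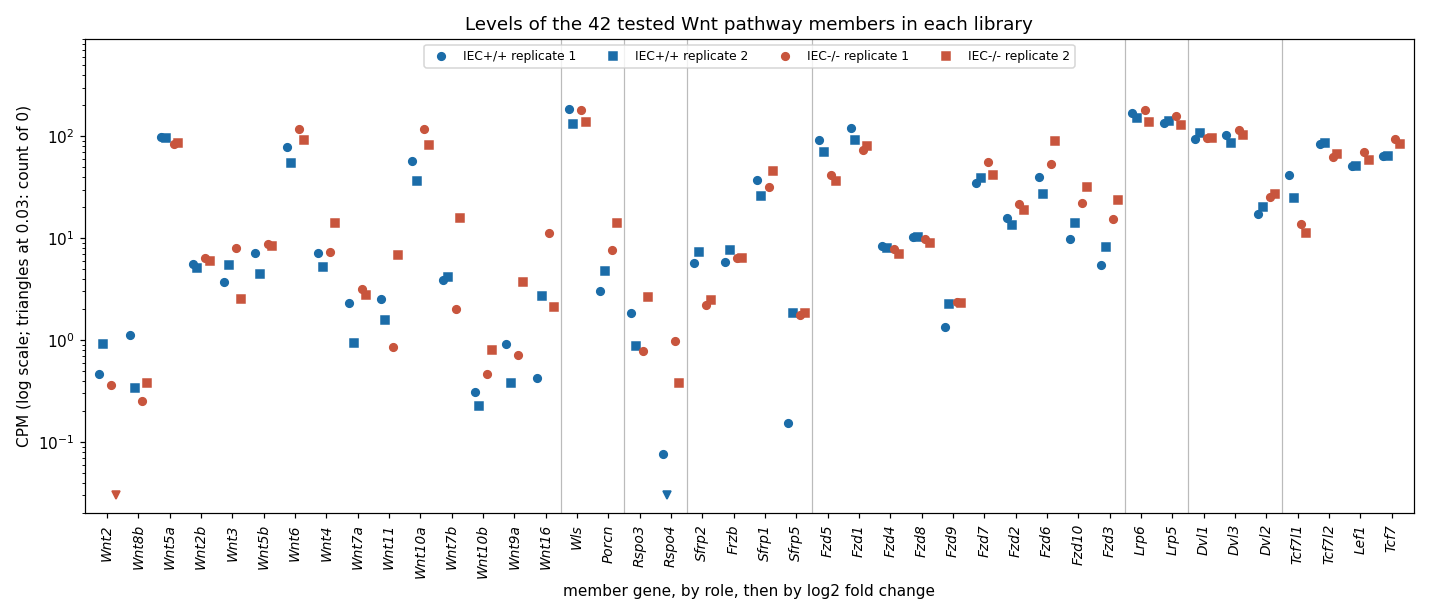
Level of each of the 42 tested members in each of the 4 libraries, in CPM on a log axis, grouped by role with grey lines between roles and ordered by log2 fold change within a role. Blue points are IEC+/+, red points IEC-/-, circles replicate 1 and squares replicate 2, and triangles at the lower edge stand for a count of 0. All 10 frizzled genes have red and blue points that do not overlap, as do 48.0% of all genes tested. Lrp5, Lrp6 and Wls have overlapping ones.

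Among the ligands, the neighbouring genes Wnt6 and Wnt10a stood highest per length, and both were higher in IEC-/- without passing the test. They lie on the plus strand of chromosome 1, Wnt6 at 74771892 to 74785322 and Wnt10a at 74791516 to 74804179 (GRCm38), with 6193 bases and no other protein-coding gene between them. Both encode secreted Wnts with known roles in epithelia. Wnt10a stood at 57.2 and 35.99 CPM in the IEC+/+ pair and at 117 and 81.2 CPM in the IEC-/- pair. Every IEC-/- value was thus above every IEC+/+ value, and replicate 1 was the higher library in both groups. The group means of 46.6 ± 15.03 and 99.3 ± 25.6 CPM (SD, n = 2 each) differed 2.13-fold (log2 ratio 1.09, SE 0.28, adjusted p = 0.156 by edgeR). Without IEC-/- replicate 2 Wnt10a was called (adjusted p = 0.0438, log2 ratio 1.33), as it was with the replicate number as a block (adjusted p = 0.0406) and by DESeq2 (adjusted p = 0.00455). It was not called with any other single library left out: the log2 ratio was 0.79 without IEC-/- replicate 1 (adjusted p = 0.189), and the adjusted p was 0.465 and 0.495 without IEC+/+ replicates 1 and 2.

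Wnt6 stood at 77.5 and 54.4 CPM in the IEC+/+ pair and at 117 and 91.9 CPM in the IEC-/- pair. The groups did not overlap, and replicate 1 was again higher within each. The means were 65.9 ± 16.4 and 104 ± 17.6 CPM (SD, n = 2; log2 ratio 0.66, SE 0.22, adjusted p = 0.230 by edgeR). Each of the other neighbouring pairs of Wnt genes held a member below the filter: Wnt3a, beside Wnt9a, had 0 counts in 3 libraries and 4 in IEC-/- replicate 2, Wnt1, beside Wnt10b, had 0 counts in all 4, and Wnt9b, beside Wnt3, had 0 and 4 counts in IEC+/+ and 10 and 9 in IEC-/-. A count of 0 allows up to 0.108 to 0.116 CPM in these libraries, the level of 3 counts, for counting error only.

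Levels of different genes were compared per kilobase of summed exon length (GENCODE M21). The annotation used for counting is not stated, so these lengths may differ from those of the counted gene models, and orders and shares between genes depend on them. On that scale Wnt6 had mean levels of 30.1 CPM per kb in IEC+/+ and 47.6 in IEC-/-, followed by Wnt10a with 18.9 and 40.2 and Wnt5a with 12.4 and 10.8. Wnt6 was above Wnt10a, and Wnt10a above Wnt5a, in each of the 4 libraries. The level summed over the 19 ligands was 81.2 and 60.4 CPM per kb in IEC+/+ and 126 and 102 in IEC-/-. Wnt10a made up 28.6% and 24.1% of that sum in IEC+/+ and 37.9% and 32.1% in IEC-/-. The share of Wnt5a was 15.5% and 20.3% in IEC+/+ and 8.53% and 10.7% in IEC-/-, and that of Wnt6 lay between 41.0% and 43.5% in all 4 libraries. Without division by length Wnt5a would take the largest share of ligand counts in IEC+/+, at 36.6% and 43.97% against 28.8% and 24.98% for Wnt6.

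Wnt5a, a ligand known mainly for signalling that does not use beta-catenin and for its expression in stroma, stood at 98.3 and 95.7 CPM in the IEC+/+ pair and at 83.8 and 85.9 CPM in the IEC-/- pair. Its libraries were close within each group, and the groups did not overlap. The log2 ratio was -0.19 (SE 0.11, adjusted p = 0.457), with a 95% interval of -0.47 to 0.083. The related Wnt5b had a log2 ratio of 0.56 (adjusted p = 0.467), and of 0.25 without IEC+/+ replicate 2. Wnt2b, a stromal Wnt that supports intestinal stem cells, had 5.11 to 6.33 CPM over all libraries (log2 ratio 0.20, adjusted p = 0.789).

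Several low ligands were high in a single library. Wnt7b stood at 3.90 and 4.12 CPM in the IEC+/+ pair, then at 2.01 CPM in IEC-/- replicate 1 and 15.9 CPM in IEC-/- replicate 2. The IEC-/- libraries thus lay on both sides of the IEC+/+ libraries. Its log2 ratio was 1.15 with all libraries (adjusted p = 0.582), 1.97 without IEC-/- replicate 1 (adjusted p = 0.0265) and -0.997 without IEC-/- replicate 2, and over the alternatives the adjusted p ranged from 0.0265 to 0.871. Wnt11 was also highest in IEC-/- replicate 2, at 6.90 CPM, against 0.863 CPM in IEC-/- replicate 1 and 2.55 and 1.59 CPM in the IEC+/+ pair. Wnt9a reached 3.70 CPM in that library and at most 0.926 CPM in the others. Wnt4, a ligand of several developing epithelia, was highest there as well, at 13.95 CPM against 7.30 CPM in IEC-/- replicate 1 and 7.18 and 5.18 CPM in the IEC+/+ pair (log2 ratio 0.78, adjusted p = 0.407; without that library 0.24). All 4 of these ligands were thus highest in the same library.

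Wnt16 was instead highest in IEC-/- replicate 1, at 11.1 CPM, against 2.13 CPM in IEC-/- replicate 2 and 0.425 and 2.72 CPM in the IEC+/+ pair. Its fitted log2 ratio of 2.07 (SE 1.07, adjusted p = 0.416), the largest of the tested ligands, rests on that library: without it the value was 0.42. Wnt3, made by Paneth cells in the small intestine, stood at 3.71 and 5.41 CPM in the IEC+/+ pair and at 7.95 and 2.55 CPM in the IEC-/- pair, which overlap. Wnt7a and Wnt10b had log2 ratios of 0.87 and 1.23, and Wnt2 and Wnt8b of -1.88 and -1.20, with adjusted p between 0.439 and 0.524 and no library above 3.20 CPM. These values varied with 1 library left out, though none of these genes changed sign. The log2 ratio then ran from 0.37 to 1.65 for Wnt7a and from 0.79 to 1.55 for Wnt10b. Wnt8b was at -0.11 without IEC+/+ replicate 1, and Wnt2 was at -0.93 without IEC-/- replicate 2, where it had 0 counts. Wnt8a, with 2 counts in IEC+/+ replicate 2 and 0 elsewhere, was not tested, nor were Wnt1, Wnt3a and Wnt9b.

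The enzyme that lipidates Wnts was higher in IEC-/- without passing the test, whereas their carrier was at similar levels. Porcn, an acyltransferase of the endoplasmic reticulum, stood at 3.01 and 4.73 CPM in the IEC+/+ pair and at 7.59 and 14.1 CPM in the IEC-/- pair. The groups did not overlap, and IEC-/- replicate 2 was the highest. The difference was 2.80-fold (log2 ratio 1.48, SE 0.42, adjusted p = 0.186 by edgeR and 0.0183 by DESeq2), and without IEC-/- replicate 2 the log2 ratio was 0.96. Over the alternatives its adjusted p ranged from 0.0183 to 0.693. Wls, the carrier, was far more abundant, with mean levels of 17.9 and 18.3 CPM per kb in IEC+/+ and IEC-/- against 1.29 and 3.62 CPM per kb for Porcn. The Wls libraries stood at 184 and 131 CPM in IEC+/+ and at 182 and 139 CPM in IEC-/-, nearly the same pair of values in each group (log2 ratio 0.030, 95% interval -0.52 to 0.58).

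R-spondin transcripts were scarce. Rspo1 and Rspo2 had 0 to 4 counts per library and were not tested. Rspo3, the main stromal R-spondin of the colon, stood at 1.85 and 0.870 CPM in the IEC+/+ pair and at 0.791 and 2.67 CPM in the IEC-/- pair, so the groups overlapped (log2 ratio 0.34, SE 0.74). Rspo4 had 2 and 0 counts in the IEC+/+ libraries and 27 and 10 counts in the IEC-/- libraries. The ratio of summed counts, scaled for library size, was 17.9, with a counting interval of 4.62 to 153 (95%, exact conditional binomial), and the edgeR adjusted p was 0.200. That interval covers counting error only and leaves out the spread between libraries. Rspo4 also passed the filter through the IEC-/- libraries alone. Even the higher of its IEC-/- libraries held only 0.971 CPM.

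Of the secreted antagonists, Sfrp2 was lower in IEC-/- without passing the test. Sfrp2, known as a product of fibroblasts, stood at 5.75 and 7.30 CPM in the IEC+/+ pair and at 2.19 and 2.48 CPM in the IEC-/- pair. Both IEC-/- libraries lay well below both IEC+/+ libraries. The means of 6.53 ± 1.10 and 2.34 ± 0.201 CPM (SD, n = 2 each) were 2.79-fold apart (log2 ratio -1.48, SE 0.33, adjusted p = 0.118 by edgeR and 0.00715 by DESeq2, with a range of 0.00715 to 0.518 over the alternatives). Sfrp2 shares 16.1% of its exonic bases with another gene model, and whether counting used strand is not stated. The 12 fibroblast markers had a median log2 ratio of -0.33 and summed levels of 3608 and 2239 CPM in the IEC+/+ libraries against 2418 and 2092 CPM in IEC-/-, with 0 called, and 1 higher and 1 lower with an unadjusted p under 0.05. Their part in the Sfrp2 result was not tested. In bulk tissue, fewer cells of a type and less RNA per cell cannot be told apart.

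Sfrp1 held the largest share of this family per length, 55.2% in the mean of IEC+/+ and 68.1% in IEC-/-. Its levels of 36.9 and 25.8 CPM in the IEC+/+ pair overlapped those of 31.9 and 45.7 CPM in the IEC-/- pair (log2 ratio 0.31, adjusted p = 0.613). Frzb, known also as a Wnt antagonist of cartilage, had 5.87 to 7.68 CPM over all libraries and a log2 ratio of -0.077 (95% interval -0.78 to 0.63). Sfrp5 stood at 0.154 CPM in IEC+/+ replicate 1 and between 1.76 and 1.85 CPM in the other 3 libraries. Its log2 ratio of 0.83 rests on that low library and was -0.050 without it. Sfrp4, with 21 and 9 counts in IEC+/+ and 6 counts in each IEC-/- library, was below the filter.

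Among the frizzled receptors, Fzd5 and Fzd1 were lower in IEC-/-, and Fzd3, Fzd6 and Fzd10 were higher, each with an unadjusted p under 0.05 and none called by edgeR. In all 10 the groups did not overlap, 6 higher and 4 lower, where 48.0% of all genes had such groups. The margins of Fzd4, Fzd8 and Fzd9 were small, with log2 ratios of -0.15, -0.12 and 0.36 (adjusted p between 0.752 and 0.846), and that of Fzd9 was 0.034 without IEC+/+ replicate 1. Fzd5 (chromosome 1, 64730558 to 64737751), a receptor known for its part in the maturation of Paneth cells, stood at 92.7 and 69.5 CPM in the IEC+/+ pair and at 41.6 and 36.3 CPM in the IEC-/- pair. The lower of the IEC+/+ libraries was still well above both IEC-/- libraries. The means of 81.1 ± 16.4 and 38.95 ± 3.76 CPM (SD, n = 2 each) were 2.08-fold apart (log2 ratio -1.06, SE 0.18, adjusted p = 0.0721 by edgeR). It was called without IEC-/- replicate 1 (adjusted p = 0.0418), with no filter on low counts (0.0388), with the replicate number as a block (0.0465) and by DESeq2 (9.17e-05), while over all alternatives the adjusted p reached 0.480, without IEC+/+ replicate 1. Gm38058, a gene model on the other strand that is not analysed here, covers 17.8% of its exonic bases.

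Fzd1, the most abundant frizzled per length in these cancers, stood at 121 and 92.3 CPM in the IEC+/+ pair and at 73.8 and 80.2 CPM in the IEC-/- pair (log2 ratio -0.47, SE 0.16, adjusted p = 0.255). The IEC+/+ libraries were more spread than the IEC-/- libraries but stayed above them.

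Fzd3 and Fzd6, receptors best known for planar cell polarity, were both higher. Fzd3 (chromosome 14, 65192449 to 65262463) stood at 5.48 and 8.21 CPM in the IEC+/+ pair and at 15.6 and 23.4 CPM in the IEC-/- pair. Replicate 2 was the higher library in both groups, and the groups were well apart. The means of 6.85 ± 1.93 and 19.5 ± 5.54 CPM (SD, n = 2 each) differed 2.84-fold (log2 ratio 1.51, SE 0.32, adjusted p = 0.113 by edgeR and 0.000638 by DESeq2), the largest value among the 10 frizzleds. Fzd6 stood at 39.4 and 27.2 CPM in the IEC+/+ pair and at 53.4 and 89.7 CPM in the IEC-/- pair (log2 ratio 1.10, SE 0.30, adjusted p = 0.171 by edgeR and 0.00793 by DESeq2). IEC-/- replicate 2 was the highest, and without it the log2 ratio was 0.68. Both genes were called without IEC-/- replicate 1 (adjusted p = 0.0412 for Fzd3 and 0.0288 for Fzd6) and with no other single library left out. Over all alternatives the adjusted p ranged from 0.000638 to 0.589 for Fzd3 and from 0.00793 to 0.554 for Fzd6.

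Fzd10, a receptor with little expression in most adult tissues, stood at 9.73 and 14.1 CPM in the IEC+/+ pair and at 22.3 and 31.8 CPM in the IEC-/- pair. The groups did not overlap. The difference was 2.27-fold (log2 ratio 1.19, SE 0.28, adjusted p = 0.137 by edgeR and 0.00347 by DESeq2, with a range of 0.00347 to 0.618 over the alternatives). Fzd7, a known receptor of intestinal stem cells, and its close relative Fzd2 had smaller log2 ratios of 0.41 and 0.48 (adjusted p = 0.344 and 0.324). For Fzd7 the IEC-/- libraries themselves differed, at 55.9 and 41.2 CPM, and the lower was near the IEC+/+ values of 34.4 and 38.5 CPM.

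With differences in both directions, the summed frizzled level overlapped between the groups: it was 69.2 and 58.8 CPM per kb in IEC+/+ and 64.9 and 72.4 in IEC-/-. Within it, Fzd1 held 41.6% and 37.4% in IEC+/+ and 27.1% and 26.4% in IEC-/-. The share of Fzd5 was 19.4% and 17.1% in IEC+/+ and 9.28% and 7.25% in IEC-/-. These shares were smaller in both IEC-/- libraries than in either IEC+/+ library. The share of Fzd6 was 11.8% and 9.60% in IEC+/+ and 17.1% and 25.7% in IEC-/-, and that of Fzd10 was 4.33% and 7.37% and then 10.6% and 13.5%. Fzd1 ranked first in all 4 libraries, narrowly over Fzd6 in IEC-/- replicate 2, and Fzd6 and Fzd7 changed places between replicates in both groups. Without division by length Fzd6 held 17.5% and 26.4% of the family in IEC-/- and Fzd1 24.2% and 23.6%, so Fzd6 then led in replicate 2. These shares are a description with no test.

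**Figure D2:**
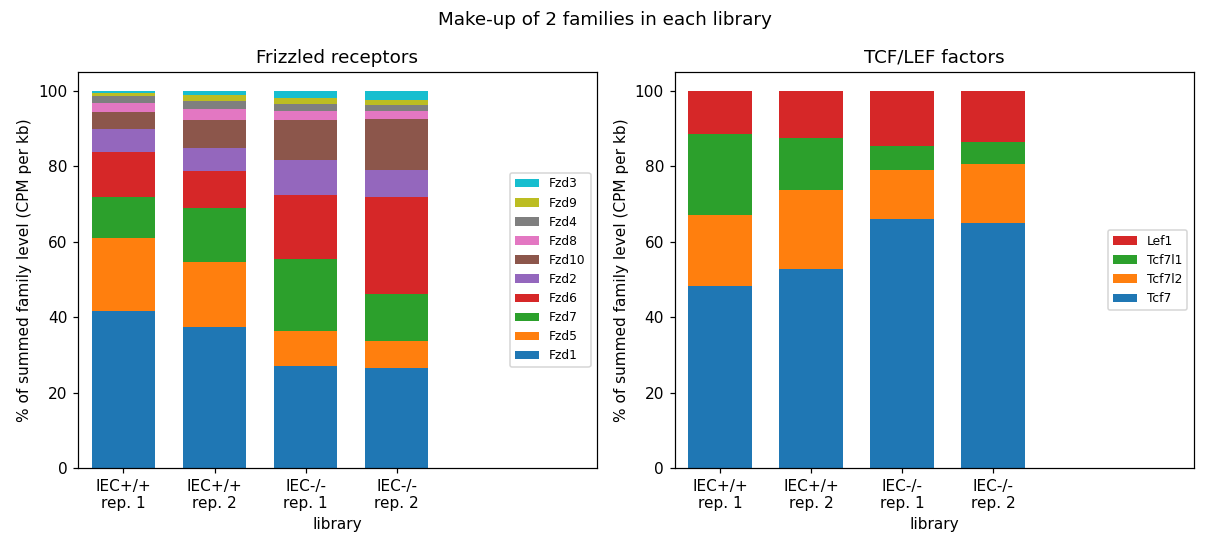
Make-up of the frizzled family (left) and of the TCF/LEF family (right) in each library, as percent of the family's summed level in CPM per kilobase of exon. Fzd1 and Fzd5 take smaller shares in both IEC-/- libraries, Fzd6 and Fzd10 larger ones, and the share of Tcf7 is 66.00% and 64.9% there against 48.3% and 52.7% in IEC+/+.

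Markers of some cell types also differed between the groups. Of 12 general epithelial markers, 9 were lower and 0 higher in IEC-/- with an unadjusted p under 0.05 and 1 was called (Krt20, a keratin of differentiated cells). Their median log2 ratio was -0.65, and their summed levels were 12159.7 and 10427 CPM in the IEC+/+ libraries against 7214 and 7034 CPM in IEC-/-. Epcam, Krt18 and Cldn4 were not among the 9, with log2 ratios of -0.30, -0.066 and 0.078. Of all genes tested, 9.12% were lower and 7.50% higher at an unadjusted p under 0.05, and 0.763% were called lower. Markers of differentiated colonocytes were lower in 10 of 10 at that level of p, 5 of them called, with sums of 802 and 418 CPM in the IEC+/+ libraries against 87.8 and 88.6 CPM in IEC-/-. Goblet cell markers were lower in 7 of 8 likewise, 2 of them called, with sums of 5609.9 and 3498 CPM in the IEC+/+ libraries against 677 and 1399 CPM in IEC-/-. The sums of 10 myeloid markers were 882 and 922 CPM in the IEC+/+ libraries against 1397 and 1245 CPM in IEC-/-. Lyz2 alone held 396 and 349 CPM of these sums in IEC+/+ and 797 and 504 CPM in IEC-/-. Cd14 was lower in IEC-/- (log2 ratio -0.72), and Adgre1, Csf1r, S100a8 and S100a9 had overlapping groups. Of the 10, 3 were higher at an unadjusted p under 0.05 and 0 were called. The 11 markers of stem cells and the crypt base had 4 higher and 1 lower at that level and 0 called, with sums of 2033 and 2256 CPM in the IEC+/+ libraries against 2633 and 2454 CPM in IEC-/-. Of the 4 higher, Axin2, Rnf43 and Lgr5 are counted again among the other pathway genes below. Sox9, Cd44 and Ephb2 had log2 ratios of -0.13, -0.26 and -0.23 with overlapping groups, and the median of the list was 0.20.

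Of the stromal and other lists 0 markers were called. Among 9 smooth muscle and myofibroblast markers 2 were lower at an unadjusted p under 0.05 (median log2 ratio -0.60, sums of 509 and 212 CPM in the IEC+/+ libraries against 269.5 and 282 CPM in IEC-/-). The sums of 9 endothelial markers were 821.3 and 755.4 CPM in the IEC+/+ libraries against 1293 and 919 CPM in IEC-/-. Prox1 alone held 549 and 492 CPM of these sums in IEC+/+ and 960 and 608 CPM in IEC-/-. Pecam1, Kdr, Emcn and Plvap had overlapping groups, and 2 of the 9, Prox1 and Vwf, were higher at that level of p. Telocyte and subepithelial fibroblast markers had 2 higher and 1 lower of 9, lymphocyte markers 1 higher of 8 tested, glial and neuronal markers 1 lower of 4 tested, and pericyte markers 0 of 6. The part of any of these cell types in the differences of the members was not tested.

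The co-receptors were at similar levels in the groups. Lrp5 stood at 136 and 139 CPM in the IEC+/+ pair and at 159 and 129 CPM in the IEC-/- pair, while Lrp6 stood at 169 and 149.8 CPM and at 179 and 138 CPM respectively. The IEC-/- libraries lay on both sides of the IEC+/+ libraries for each gene. The 95% interval of the log2 ratio was -0.29 to 0.42 for Lrp5 and -0.42 to 0.41 for Lrp6, so a 2-fold difference lay outside both. Of the dishevelled genes, Dvl1 and Dvl3 overlapped between the groups, with log2 ratios of -0.063 and 0.19 (adjusted p = 0.858 and 0.578). Dvl1 was the most abundant of the 3 per length, at mean levels of 20.02 and 19.2 CPM per kb in IEC+/+ and IEC-/-. Its libraries stood at 93.3 and 107 CPM in the IEC+/+ pair and at 96.2 and 95.3 CPM in the IEC-/- pair. Dvl2 stood at 17.3 and 20.1 CPM in the IEC+/+ pair and at 25.4 and 27.2 CPM in the IEC-/- pair, with no overlap (log2 ratio 0.49, SE 0.17, adjusted p = 0.258). Dvl2 shares 19.7% of its exonic bases with other genes, among them Acadvl on the other strand, whose levels were lower in IEC-/-, at 83.3 and 91.9 CPM against 115 and 102 CPM.

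The TCF/LEF factors lay on both sides: Tcf7 and Lef1 were higher in IEC-/-, and Tcf7l1 and Tcf7l2 were lower, with 0 of the 4 called by edgeR. Tcf7 (chromosome 11, 52252371 to 52283014) and Lef1 are known as activators with beta-catenin and as targets of the pathway in many tissues, whereas Tcf7l1 is known chiefly as a repressor. The groups did not overlap for any of the 4 genes, where 48.0% of all genes tested had such groups. Tcf7 stood at 63.6 and 64.1 CPM in the IEC+/+ pair and at 94.8 and 83.3 CPM in the IEC-/- pair. The means were 63.9 ± 0.376 and 89.01 ± 8.14 CPM (SD, n = 2; log2 ratio 0.48, SE 0.12, adjusted p = 0.156 by edgeR). Lef1 stood at 51.1 and 51.5 CPM in the IEC+/+ pair and at 69.8 and 58.1 CPM in the IEC-/- pair (log2 ratio 0.32, SE 0.14, adjusted p = 0.329), the IEC-/- libraries being the more spread. Lef1 shares 13.7% of its exonic bases with another gene model.

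Tcf7l1 (chromosome 6, 72626378 to 72789254) stood at 41.9 and 24.9 CPM in the IEC+/+ pair and at 13.7 and 11.4 CPM in the IEC-/- pair. The IEC+/+ libraries were far apart, yet the lower of them exceeded both IEC-/- libraries. The means of 33.4 ± 11.98 and 12.5 ± 1.66 CPM (SD, n = 2 each) were 2.66-fold apart (log2 ratio -1.41, SE 0.29, adjusted p = 0.104 by edgeR and 0.000333 by DESeq2, with a range of 0.000333 to 0.547 over the alternatives). Leaving out IEC+/+ replicate 1, the highest library, gave a log2 ratio of -0.996, the weakest of the values without 1 library. Gm15401, on the other strand, overlaps 4.56% of the exonic bases of Tcf7l1 and followed the same order, at 24.3 and 11.1 CPM in the IEC+/+ pair and 2.55 and 2.52 CPM in the IEC-/- pair (log2 ratio -2.80, adjusted p = 0.0621). The use of strand in counting is not stated, so reads in the shared part of this pair cannot be told apart.

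Tcf7l2 (chromosome 19, 55741820 to 55933654) stood at 82.98 and 85.2 CPM in the IEC+/+ pair and at 62.8 and 66.8 CPM in the IEC-/- pair. The libraries of each group were close, and the groups were apart (log2 ratio -0.38, SE 0.11, adjusted p = 0.203). The summed level of the 4 genes was 50.2 and 46.4 CPM per kb in IEC+/+ and 54.7 and 48.8 in IEC-/-, which overlap. Tcf7 and Lef1 together made up 59.9% and 65.3% of it in IEC+/+ and 80.5% and 78.5% in IEC-/-. On CPM without division by length the same shares were 47.9% and 51.2% in IEC+/+ and 68.3% and 64.4% in IEC-/-. A count per gene does not separate the long forms of Tcf7 and Lef1 from the short forms that lack the beta-catenin binding part.

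**Figure D3:**
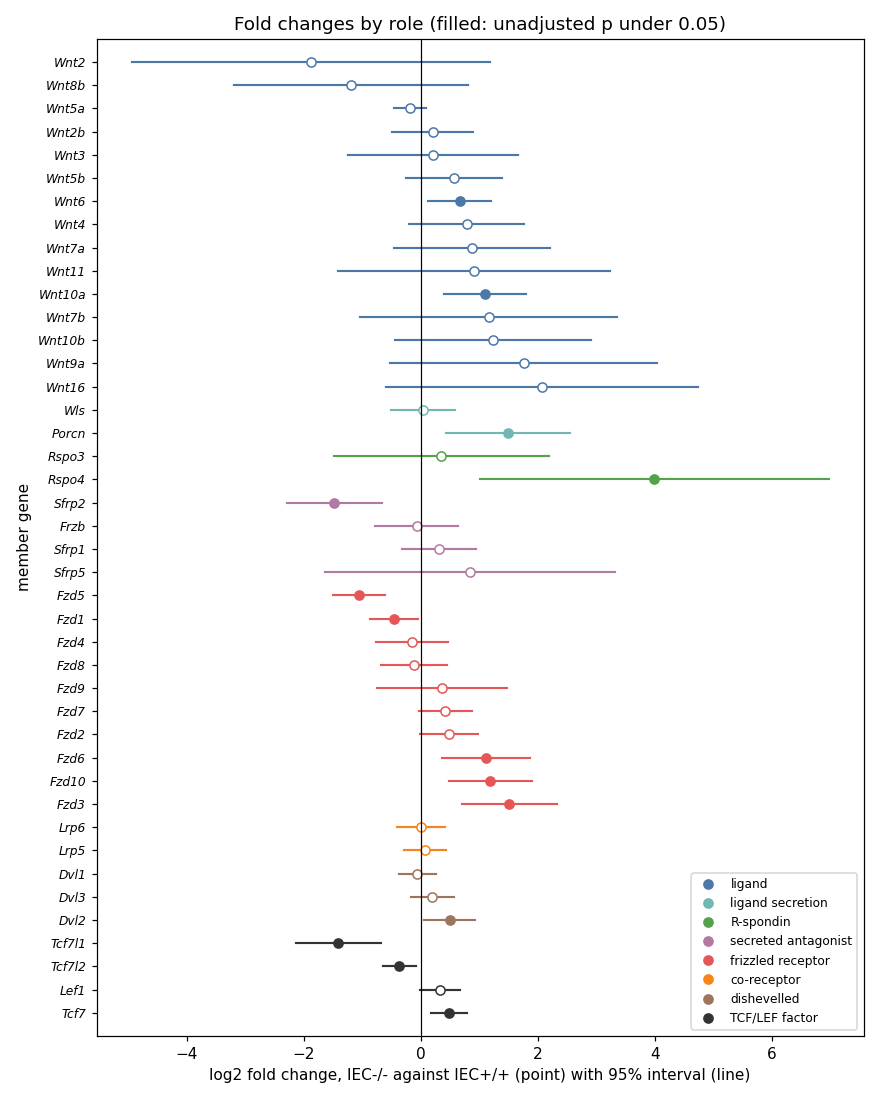
Log2 fold change of each of the 42 tested members, IEC-/- against IEC+/+ (points), with the 95% interval of the edgeR quasi-likelihood fit (lines), coloured by role. Filled points have an unadjusted p under 0.05: the frizzled and TCF/LEF families have filled points on both sides of 0, and the intervals of Wnt2, Wnt16 and Rspo4 are wide.

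Beyond the members, a list of 73 other genes of the pathway was read from the same fit, and 68 of these were tested. By edgeR 0 were called (0.884% of all genes), while 23 were higher and 3 lower in IEC-/- with an unadjusted p under 0.05, which is 38.2% of those tested against 16.6% of all genes. DESeq2 called 17 higher and 2 lower of the 69 to which it gave an adjusted p (7.95% of all genes). Their median log2 ratio was 0.23. Axin2, the scaffold of the destruction complex and a widely used readout of the pathway, stood at 410.4 and 447 CPM in the IEC+/+ pair and at 670.1 and 654 CPM in the IEC-/- pair (log2 ratio 0.63, SE 0.12, adjusted p = 0.0851). Ctnnb1, the beta-catenin gene, stood at 1673 and 1724 CPM in the IEC+/+ pair and at 1903 and 1844 CPM in the IEC-/- pair (log2 ratio 0.14, adjusted p = 0.599).

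The 8 genes of this list with the smallest p-values, Axin2 among them, have several roles. Bcl9l, an adaptor that links beta-catenin to Pygo proteins, stood at 75.03 and 73.5 CPM in the IEC+/+ pair and at 130.2 and 117 CPM in the IEC-/- pair (log2 ratio 0.73, adjusted p = 0.0696), and Pygo1 had a log2 ratio of 1.34 (adjusted p = 0.102). Ptk7 and Vangl2, cell-surface proteins of planar cell polarity, the branch in which Fzd3 and Fzd6 are best known, had log2 ratios of 0.67 and 0.77 (adjusted p = 0.0708 and 0.104). The extracellular proteins here were Dkk3, a Dickkopf relative, Wif1, which binds Wnts, and Notum, which removes the lipid that Porcn adds. Their log2 ratios were 0.75, 0.74 and 0.67 (adjusted p = 0.0613, 0.0874 and 0.0903). All 8 were higher in IEC-/- with groups that did not overlap, as in 48.0% of all genes tested. They were chosen for their p-values, so this is a description. Against the 23 higher at an unadjusted p under 0.05, the 3 lower were Kremen2, Tle4 and Lgr4. Their log2 ratios were -1.56, -0.60 and -0.52 (edgeR adjusted p = 0.119, 0.138 and 0.236).

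**Figure D4:**
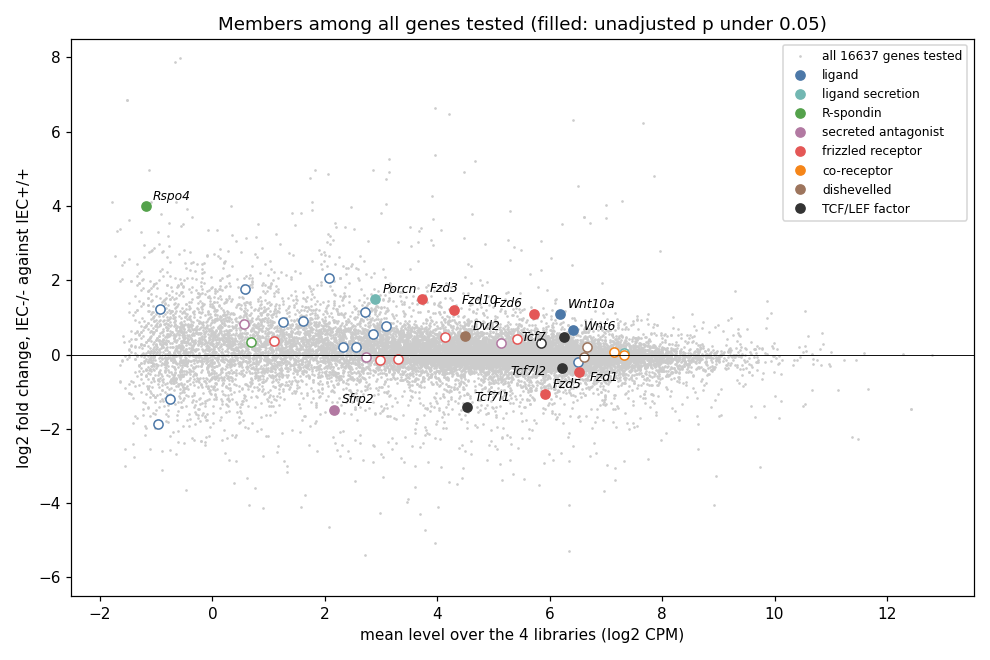
Log2 fold change (IEC-/- against IEC+/+) against mean level over the 4 libraries (log2 CPM) for all 16637 genes tested (grey points) and the 42 members (circles coloured by role; filled and named where the unadjusted p is under 0.05). Named members lie on both sides of 0, from Sfrp2 at -1.48 and Tcf7l1 at -1.41 to Rspo4 at 3.99, a gene with few counts.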

How the data were processed

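The authors deposited 1 table of raw read counts by gene symbol for each of the 4 libraries, not normalized. TopHat, limma, edgeR and mm10 (GRCm38) appear in the submitters' processing notes. Versions, counter, annotation and strandedness: not given in the sources used here. Sample titles give the groups and replicate numbers.

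With edgeR 4.0.16 (R 4.3.3), counts from all 4 libraries were scaled by TMM, filtered with filterByExpr and compared between groups by the quasi-likelihood test without covariates. Benjamini-Hochberg adjustment ran over the 16637 genes kept, and calls needed an adjusted p under 0.05. Standard errors come from the F statistic. With 2 libraries per group an exact permutation test could not reach the threshold. Alternatives were other scalings, no filter, DESeq2 1.42.0, limma-voom 3.58.1, the replicate block and leaving out each library.

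Every member is named. Values by library are given where the unadjusted p is under 0.05, for the most abundant gene of a role per length and for the most different of a family. Those of other members whose libraries disagree or overlap were added after their values were seen. Of the other pathway genes, Gsk3b, Ctnnb1, Axin2 and the 8 with the smallest p are named. The 3 lower ones with an unadjusted p under 0.05 were added after their values were seen. The members, gene lists and marker lists were chosen with earlier results of these data known.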

Additional observations from a re-analysis of the deposited data

How the results depend on the processing

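Of the 42 members tested, 32 kept their direction under each of the 10 alternatives that gave a value and 10 reversed in at least 1. Over all genes, 147 were called by the edgeR test (20 higher and 127 lower), 83 by total counts without TMM, 1264 by DESeq2 (466 higher and 798 lower), 78 by limma-voom, 376 with no filter, and 0 to 729 with 1 library left out: 0 with IEC+/+ replicate 1 or replicate 2 left out (1384 and 1754 at an unadjusted p under 0.05), 729 without IEC-/- replicate 1 and 567 without IEC-/- replicate 2. Members called numbered 0, then 8 by DESeq2, 1 with no filter, 2 with the replicate block and 0 to 4 with 1 library left out. Members at an unadjusted p under 0.05 numbered 14, and 9 to 15 with 1 library left out, the 9 being without IEC+/+ replicate 2. Other pathway genes called numbered 0, then 19 by DESeq2, 2 with no filter and 0 to 6 with 1 library left out. The cause was not tested. A lone library left in a group is assumed to vary like the others.

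Total counts without TMM moved the median log2 ratio of all genes from 0.01 to 0.12, and there Dvl1, Frzb and Lrp6 turned to 0.045, 0.029 and 0.11, none above that shift. With 1 library left out the log2 ratio ran from -0.16 to 0.034 for Dvl1, -0.26 to 0.13 for Frzb, -0.10 to 0.20 for Lrp5, -0.21 to 0.17 for Lrp6, -0.78 to 0.98 for Rspo3, -0.050 to 3.50 for Sfrp5, -0.20 to 0.29 for Wls, -1.26 to 1.73 for Wnt11, -0.85 to 0.80 for Wnt3 and -0.997 to 1.97 for Wnt7b.

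Both groups carry the same replicate numbers, but the labels do not say what a number shares. Deviations of same-numbered libraries from their group means correlated at 0.16 over genes, and 2 pairs cannot show pairing. With the replicate block 211 genes were called, Fzd5 and Wnt10a being the members among them. Depth limits Rspo1, Rspo2, Rspo4, Sfrp4, Wnt1, Wnt2, Wnt3a, Wnt8a, Wnt9b and Wnt10b, each with at most 27 counts in a library.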
